A study of Homo sapiens with 6 samples.

Results

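Ribosome biogenesis factors are the proteins that build ribosomes in the nucleolus without becoming part of them. A list of 39 of them, named by current gene symbol, was examined in T47D cells after treatment with GDC-0941, and 34 of the 39 were measured, out of 19775 genes in all. Members were chosen by gene symbol, with earlier results of these data known. Each was read from the probe set with the highest mean signal over the arrays among those annotated to that gene alone. BOP1, DKC1, GNL3, NOP56 and PPAN had no probe set annotated to 1 gene alone and carry no value here.

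The T47D line derives from a human luminal breast carcinoma. GDC-0941 blocks every class I PI3 kinase, enzymes upstream of AKT and mTOR. RNA from 3 samples treated with GDC-0941 for 6 hours and from 3 control samples, whose agent the labels give as none, was measured on 1 oligonucleotide array each, to find transcripts that respond to the inhibitor. The dose reads 1 mM in the labels, where a micro sign may have been lost. All 6 samples came from the same line grown in the same serum-containing medium, and the labels do not say whether controls received the solvent or whether replicates were separate cultures, so the p-values reflect variation among these samples only, possibly technical.

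Values are log2 signals as deposited, which RMA makes relative to the other transcripts on the arrays. Array medians over all probe sets lay between 7.34 and 7.38, and arrays correlated at 0.99704 or more within groups and at 0.99416 or less between groups, across probe sets. All 9 luminal markers were bright, between 11.62 and 14.34 in either group, but 6 of them changed. ERBB3 (0.97), FOXA1 (0.53), PGR (0.42) and PRLR (0.21) rose and KRT8 (-0.23) and KRT18 (-0.21) fell, as log2 differences with an adjusted p of 0.0144 or less in limma, and ESR1 (-0.14), GATA3 (0.06) and KRT19 (-0.08) were not called. Markers of other cells were not all dim: KRT14, ZEB1 and PTPRC averaged 6.03 to 6.25 in either group, PECAM1 9.44 under GDC-0941 and 9.42 in controls, and CD3E 8.84 and 8.78. COL1A1, the 1 called of 10 such markers, averaged 10.97 under GDC-0941 and 10.40 in controls, a rise of 0.56 (adjusted p = 6.53e-05 in limma) whose part in the results below was not tested.

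Ribosome production starts when RNA polymerase I transcribes the rDNA repeats into a long precursor. Small nucleolar ribonucleoproteins (snoRNPs) modify that precursor and guide its folding, and a succession of assembly factors cuts it and turns it into the small (40S) and large (60S) subunits. Growth factor signalling through PI3 kinase and mTOR is known to promote this work, and MYC is known to drive many of the genes concerned.

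Transcripts of these factors were lower after GDC-0941. Of the 34 members, 26 (76.5%) fell and none rose at an adjusted p under 0.05 in limma, where 15.6% of all genes fell and 12.1% rose. Because the members were chosen with earlier results known, these shares are a description, and the list was given no set test. At an unadjusted p under 0.05 in limma, 28 members were lower and 1, NPM1, was higher, against 4121 and 3151 of all 19775 genes. In RNA from whole cultures, fewer cells of a type and less RNA per cell cannot be told apart. The median log2 difference, GDC-0941 minus control, was -0.37 over the members and -0.02 over all genes. In 29 members all 3 GDC-0941 arrays lay below all 3 control arrays, which held for 24% of all genes. All 34 members were among the 9887 genes with a mean signal above the median, and 25.8% of those genes fell.

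Most falls were moderate. Only 10 members were lower by at least 0.5 on the log2 scale, a size that 2.5% of all genes reached. They were NOP16, LYAR, RRS1, GNL2, BYSL, NOLC1, MYBBP1A, RRP12, PNO1 and DDX21. NOP16, a large subunit assembly factor, was the single member past a 2-fold change, at 2.07-fold lower. The median of the members' differences from their control mean was -0.28, -0.45 and -0.37 on GDC-0941 replicates 1, 2 and 3. The spread of all genes on these arrays, as an SD, was 2.04, 1.96 and 2.00, against 2.00, 2.00 and 2.03 on the control arrays, and its part in the differences was not tested.

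**Figure D1:**
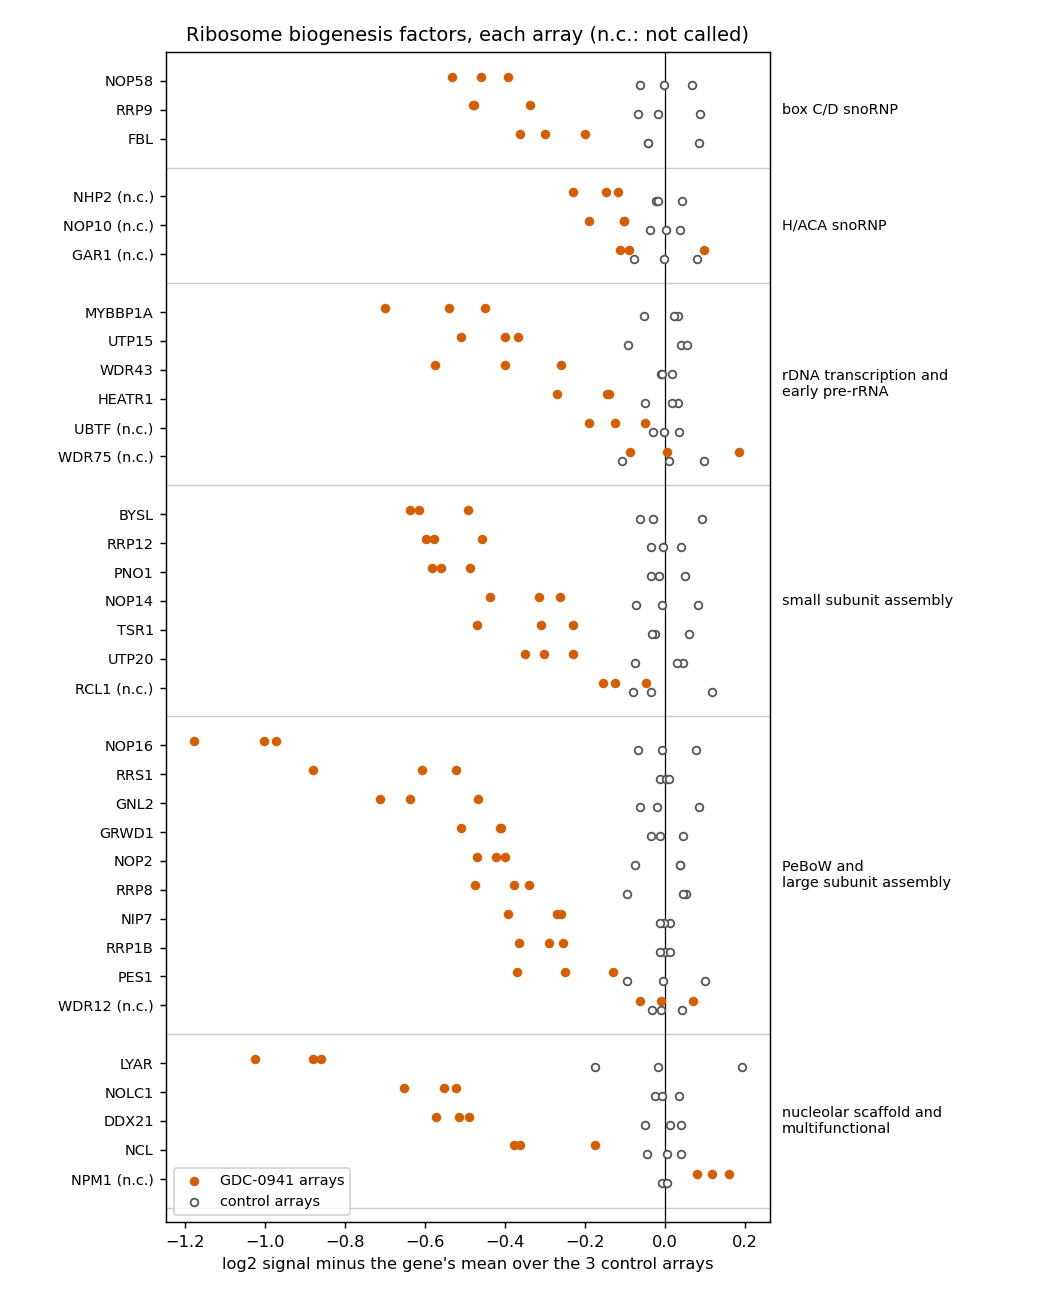
Log2 signal of each measured member on each array, minus that member's mean over the 3 control arrays (x axis), with members grouped by role and ordered by difference. Filled points are the GDC-0941 arrays and open points the control arrays; in 29 of the 34 members the filled points all lie to the left of the open ones, and NPM1 is the 1 member where they all lie to the right.

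The size of the fall depended on the reference. With each array centred instead on its 18 hybridisation control probe sets (bacterial and phage transcripts added before hybridisation), whose means were 10.72, 10.65 and 10.86 under GDC-0941 and 10.94, 10.90 and 10.90 in controls, every difference moved up by the same amount, and the median over all genes became 0.15. On that scale 16 members (47.1%) were lower and 1, NPM1, was higher, with a median of -0.20, while 4.53% of all genes were lower and 28.8% higher. The 10 members listed above were lower on both scales. The others called on both were NOP58, RRP9, GRWD1, NOP2, UTP15 and WDR43. The hybridisation controls did not all differ by the same amount. GDC-0941 minus control ran from -0.28 (a BioC probe set, 9.67 in controls) to -0.03 (a cre probe set, 13.93 in controls). Centring on only some of them was not tested, so the size of the fall on this scale is uncertain.

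Some promoters of the members held an E-box. Motif and members were both chosen with earlier results of these data known, so the shares below are a description. The E-box CACGTG, a palindrome that MYC binds with MAX and that USF and TFE family factors bind as well, was searched from 250 bases before to 50 bases after the annotated transcript start. RefSeq promoter sequences of GRCh38.p14 were at hand for 29 of the 34 measured members. The other 5, RRS1, NOP58, RRP1B, NOLC1 and RRP12, all fell and were not searched. The motif stood in 14 of these 29 promoters (48.3%), in 7.27% of the 27305 promoters of the same length in the table and in 8.55% of those of genes on the array. Member promoters were rich in CpG, which the motif contains, with a median of 25 CpG against 13 over all promoters. Of the 8545 promoters with at least 25 CpG, 10.7% held the motif.

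The motifs also stood close to the start. In 13 of the 29 member promoters (44.8%) an E-box lay between 20 bases before and 50 bases after the start, against 1.61% of all promoters, a stretch chosen after the positions were seen. The 60-base windows below show where it sits (E-box in capitals) in the 9 of these 13 members whose E-box ends within 20 bases after the start, and in LYAR. They begin 40 bases before the start and end 20 bases after it, except that of LYAR, which covers positions -84 to -25.
LYAR (chr4:4290046-4290105, minus strand): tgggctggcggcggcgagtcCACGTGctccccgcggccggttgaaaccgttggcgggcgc
UTP20 (chr12:101280065-101280124, plus strand): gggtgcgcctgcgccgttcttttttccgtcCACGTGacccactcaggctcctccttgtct
RRP9 (chr3:51941885-51941944, minus strand): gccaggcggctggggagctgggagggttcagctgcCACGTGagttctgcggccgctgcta
GNL2 (chr1:37595918-37595977, minus strand): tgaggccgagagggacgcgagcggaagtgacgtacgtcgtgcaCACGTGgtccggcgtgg
WDR43 (chr2:28894627-28894686, plus strand): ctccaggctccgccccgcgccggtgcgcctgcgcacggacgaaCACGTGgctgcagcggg
FBL (chr19:39846360-39846419, minus strand): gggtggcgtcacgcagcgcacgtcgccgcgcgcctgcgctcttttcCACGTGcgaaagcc
PNO1 (chr2:68157848-68157907, plus strand): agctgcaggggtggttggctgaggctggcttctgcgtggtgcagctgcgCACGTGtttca
PES1 (chr22:30591891-30591950, minus strand): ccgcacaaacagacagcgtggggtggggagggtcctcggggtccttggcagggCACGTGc
RCL1 (chr9:4792904-4792963, plus strand): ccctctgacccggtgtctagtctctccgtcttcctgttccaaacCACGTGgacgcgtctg
NOP10 (chr15:34343117-34343176, minus strand): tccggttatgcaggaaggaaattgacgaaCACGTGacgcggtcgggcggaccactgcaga

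The first 8 of these belong to members that fell, while RCL1 and NOP10 were not called. In the other 4 of the 13, NOP14, MYBBP1A, BYSL and NOP2, the E-box lay or ended further after the start, and all 4 fell. The difference between members with and without the motif was not tested. Of the 14 members with it 12 fell, with a median log2 difference of -0.42. Of the 15 searched members without it 9 fell, with a median of -0.31. The 5 members not searched all fell and are in neither group. NOP16, the member that fell most, had no E-box in the searched stretch. Another 6-base motif, CCGGAA of the ETS factors, searched on both strands, stood in 51.7% of member promoters. It stood in 17.5% of all promoters, 22.8% of those of genes on the array and 56.2% of those of cytosolic ribosomal protein genes. Its share was not compared among promoters rich in CpG. The E-box stood in 4.17% of the promoters of ribosomal protein genes (2 of 48). It stood in 23.6% of 148 promoters of other genes of ribosome production, the lists described below.

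**Figure D2:**
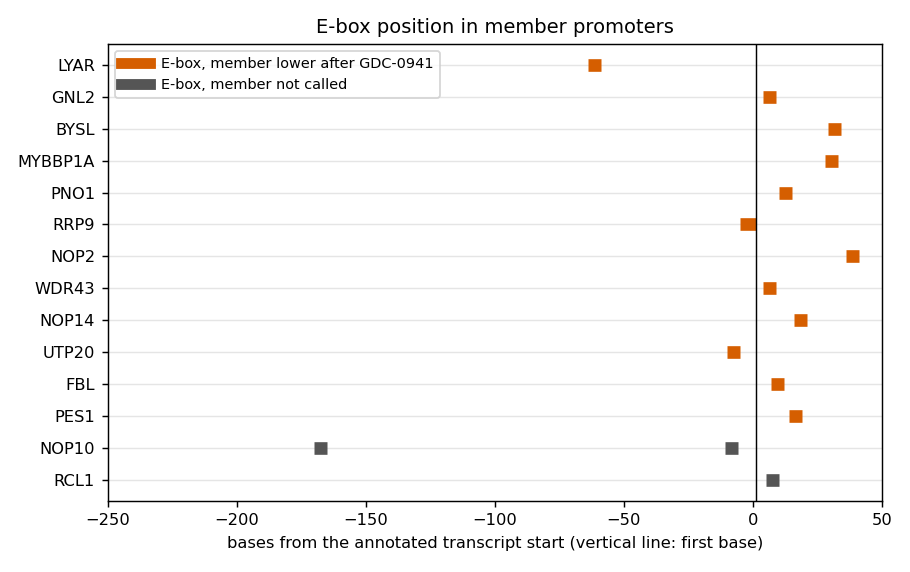
Position of each E-box (bars) relative to the annotated transcript start (x axis, in bases) in the 14 member promoters that hold one, from the member with the largest fall at the top. All but LYAR have one between 20 bases before and 50 bases after the start, and NOP10 has a further one at position -170.

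Large subunit assembly held the member with the largest fall. Of its 10 measured factors 9 fell, with a median log2 difference of -0.41. NOP16 had log2 signals of 10.34, 10.13 and 10.31 in the GDC-0941 arrays, against 11.39, 11.24 and 11.30 in the control arrays. The groups lay far apart, with a difference of -1.05 ± 0.07 (SE, n = 3 each, adjusted p = 1.45e-06 in limma), the 22nd largest fall of all genes. RRS1, which helps bring the 5S particle into the growing large subunit, had 10.62, 10.26 and 10.53 under GDC-0941, against 11.12, 11.14 and 11.15 in controls. Its GDC-0941 arrays spread more widely than its controls (SD 0.19 and 0.01), and replicate 2 was the lowest. The difference was -0.67 ± 0.08 (SE, adjusted p = 9.72e-05 in limma). GNL2, a nucleolar GTPase, had 8.92, 8.75 and 8.68 under GDC-0941, against 9.37, 9.33 and 9.47 in controls. All treated values were again below all controls, by -0.61 ± 0.07 on average (SE, adjusted p = 8.02e-05 in limma).

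Other large subunit factors fell less. GRWD1 differed by -0.44, NOP2, which methylates a cytosine of 28S rRNA, by -0.43, and RRP8, which methylates an adenine of it, by -0.40. NIP7 and RRP1B differed by -0.31 and -0.30. In these 5 the adjusted p in limma was 0.0019 or less. Of the PeBoW complex (PES1, BOP1 and WDR12), which acts on the large subunit precursor, BOP1 had no value. PES1 differed by -0.25 ± 0.07 (SE, adjusted p = 0.0249 in limma), and its call was lost without GDC-0941 replicate 2 or 3 or control replicate 2 or 3. WDR12 had 10.99, 10.85 and 10.91 under GDC-0941, against 10.88, 10.90 and 10.96 in controls. The groups overlapped, and the difference was -0.00064 ± 0.06 (SE, adjusted p = 0.996 in limma).

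Among factors of the small subunit 6 of 7 fell, with a median of -0.34. BYSL (bystin), needed for 40S maturation, had 9.67, 9.54 and 9.52 under GDC-0941, against 10.13, 10.10 and 10.25 in controls. RRP12, a HEAT repeat protein of pre-ribosome maturation and export, had 9.44, 9.32 and 9.30 under GDC-0941, against 9.89, 9.86 and 9.94 in controls. PNO1, partner of the endonuclease that makes the mature end of 18S rRNA, had 9.99, 10.06 and 9.96 under GDC-0941, against 10.60, 10.53 and 10.51 in controls. In all 3 genes the groups were clear of each other, with differences of -0.58 ± 0.06, -0.54 ± 0.06 and -0.54 ± 0.06 (SE, adjusted p of 5.01e-05 or less in limma). Around them, NOP14 differed by -0.34, TSR1, related to translational GTPases, by -0.34 and UTP20 by -0.29, each called (adjusted p of 0.0031 or less in limma). RCL1, needed in yeast for a cleavage of the rRNA precursor, was the exception. It had 9.12, 9.01 and 9.04 under GDC-0941, against 9.08, 9.13 and 9.28 in controls, so the groups overlapped (-0.11 ± 0.07, adjusted p = 0.268 in limma).

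Of the factors at the rDNA and on the newborn precursor 4 of 6 fell, with a median of -0.30. MYBBP1A, a nucleolar MYB-binding protein, had 8.93, 8.84 and 8.68 under GDC-0941, against 9.33, 9.41 and 9.40 in controls. Every treated array lay below every control, with a difference of -0.56 ± 0.07 (SE, adjusted p = 9.97e-05 in limma). UTP15, WDR43, HEATR1 and WDR75 belong to one subcomplex, which in yeast links rDNA transcription to early processing. Their differences ranged widely, which was not tested between members. UTP15 and WDR43 differed by -0.43 and -0.41 (adjusted p of 0.0015 or less in limma), and HEATR1 by only -0.19 (adjusted p = 0.0374 in limma), a call that was lost when any array but GDC-0941 replicate 1 was left out. WDR75 had 9.25, 8.98 and 9.07 under GDC-0941, against 9.07, 8.96 and 9.16 in controls, with overlap (0.03 ± 0.08, adjusted p = 0.813 in limma). UBTF, the HMG-box factor that holds active rDNA open for RNA polymerase I, had 10.07, 9.93 and 9.99 under GDC-0941, against 10.09, 10.12 and 10.15 in controls. Its groups just failed to overlap, and the difference of -0.12 ± 0.06 did not pass (SE, adjusted p = 0.156 in limma).

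The snoRNP classes gave different counts. Box C/D particles, most of which guide ribose methylation, had all 3 measured proteins lower. The scaffold protein NOP58 differed by -0.46, the U3 protein RRP9 by -0.43 and the methyltransferase fibrillarin (FBL) by -0.29 (adjusted p of 0.0052 or less in limma). Of the H/ACA proteins, which guide pseudouridylation, none of 3 was called. NHP2 had 12.29, 12.17 and 12.26 under GDC-0941, against 12.38, 12.39 and 12.45 in controls. NOP10 had 12.14, 12.05 and 12.14 under GDC-0941, against 12.20, 12.24 and 12.28 in controls. In both genes the treated arrays were all below the controls, by -0.17 ± 0.06 and -0.13 ± 0.06 (SE, adjusted p = 0.0504 and 0.111 in limma). GAR1 had 10.06, 9.85 and 9.87 under GDC-0941, against 9.89, 9.96 and 10.04 in controls, with overlap (-0.04 ± 0.07, adjusted p = 0.779 in limma). NHP2 lay at the edge of the threshold and was called lower in 6 of 17 alternative settings, and NOP10 was called lower in 3. The difference between the particle classes was not tested.

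Nucleolar proteins with several functions fell in 4 of 5 cases. LYAR, a nucleolar zinc finger protein, had 8.80, 8.63 and 8.78 under GDC-0941, against 9.48, 9.64 and 9.85 in controls. Here the controls were the wider group (SD 0.09 under GDC-0941 and 0.18 in controls), yet all lay above the treated arrays, and the difference was -0.92 ± 0.09 (SE, adjusted p = 1.63e-05 in limma). NOLC1 (Nopp140), a chaperone of snoRNPs, had 11.56, 11.43 and 11.53 under GDC-0941, against 12.06, 12.08 and 12.12 in controls. DDX21, an RNA helicase of rRNA processing, had 11.79, 11.71 and 11.77 under GDC-0941, against 12.32, 12.23 and 12.29 in controls. Both genes were tight within groups and well separated, with differences of -0.58 ± 0.06 and -0.53 ± 0.06 (SE, adjusted p of 3.95e-05 or less in limma). Nucleolin (NCL) differed by -0.31 ± 0.07 (SE, adjusted p = 0.00447 in limma).

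Nucleophosmin (NPM1), a histone and pre-ribosome chaperone of the nucleolus, did not follow. It had 13.89, 13.81 and 13.85 under GDC-0941, against 13.74, 13.73 and 13.74 in controls. All treated arrays lay above all controls, an order found in no other member, though the difference of 0.12 ± 0.05 did not pass (SE, adjusted p = 0.136 in limma). Its other 2 probe sets differed by -0.01 each and were not called. All 3 probe sets carry a manufacturer's mark for matching several transcripts, and NPM1 has pseudogenes, so its value is uncertain. The 3 probe sets were also very bright, with means of 13.79, 13.61 and 12.85. Whether signals so high could still show a fall was not tested.

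Several probe sets were at hand for 19 members. Of the 72 probe sets of all 34 members 41 were lower and none higher in limma over all 54613 probe sets, where 9.89% were lower and 8.88% higher. All probe sets fell in 6 of the 19, which were DDX21, LYAR, MYBBP1A, NIP7, NOLC1 and UTP15. For 10 members some fell and others were not called. NOP16 fell on its 2 brighter probe sets (-1.05 and -1.02), while the dimmer ones differed by -0.15 and 0.02. WDR12 showed the reverse: its bright probe set (mean 10.92) did not move, and 2 dim ones (means 5.82 and 5.47) fell by 0.24 and 0.33 on the log2 scale. UBTF was called on 2 of 5 probe sets, at -0.25 and -0.23, neither of them the one used. RRP12 fell on 2 of 5, and RRP8 on 1 of 3, and both lost their call when a probe set without a manufacturer's mark was preferred (adjusted p = 0.476 and 0.860 in limma). NCL fell on 1 of 2, and the other, its unmarked one, differed by 0.06 without being called. For HEATR1, RCL1 and NPM1 no probe set was called over all probe sets.

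**Figure D3:**
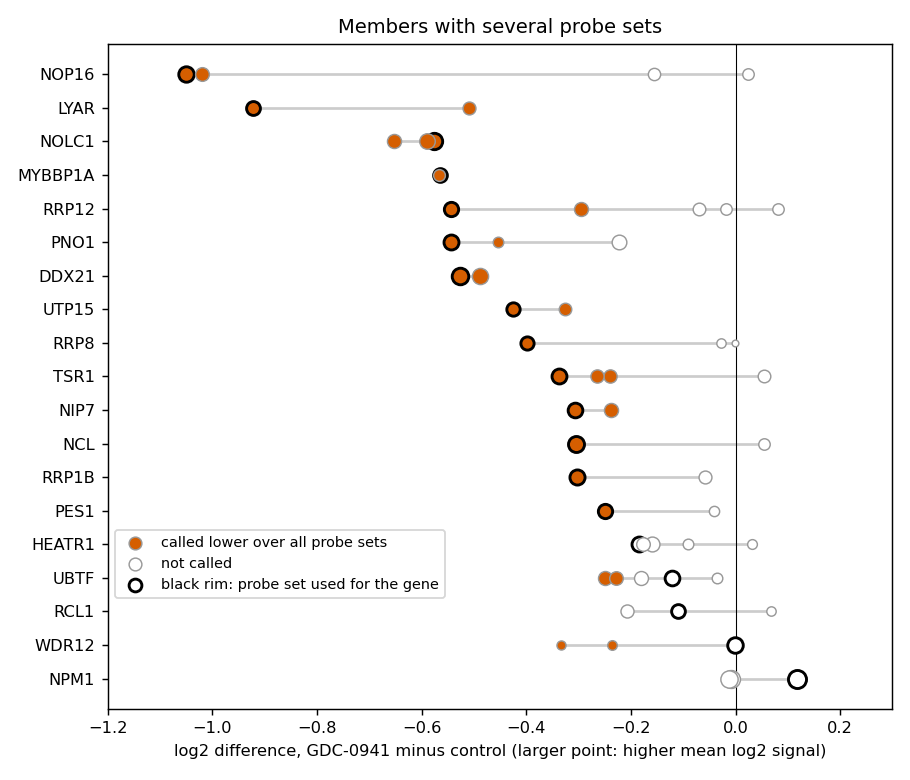
Log2 difference, GDC-0941 minus control (x axis), of every probe set of the 19 members that have several, with larger points for a higher mean signal. Filled points were called lower over all probe sets, black rims mark the probe set used for the gene, and no point was called higher.

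Other genes of ribosome production, in lists drawn up by role, mostly fell too. Of 155 measured genes in 6 lists, 92 (59.4%) fell and 9 (5.81%) rose, with a median of -0.25. Of all genes 15.6% fell and 12.1% rose, with a median of -0.02, also the background for each list below. With the arrays centred on hybridisation controls 43 of the 155 (27.7%) fell and 20 (12.9%) rose. On that scale 4.53% of all genes fell and 28.8% rose. Among 52 other small subunit factors 34 fell, led by RRP36 (-0.74), PWP2 (-0.65) and EMG1 (-0.62), and RIOK3, a kinase of late 40S maturation, rose (0.28). Among 55 other large subunit factors 33 fell and 3 rose, but 1 rose without GDC-0941 replicate 1, GDC-0941 replicate 2 or control replicate 2. CCDC86 (-0.95), MRTO4 (-0.77) and FTSJ3, a methyltransferase of the large subunit precursor (-0.60), fell most, and NOL8 (0.49), NOP53 (0.26) and TMA16 (0.17) rose. The calls of NOP53, whose groups overlapped, and TMA16 were near the threshold (adjusted p = 0.0425 and 0.0447 in limma).

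RNA polymerase I machinery had 8 of 15 genes lower and 2 higher and a median of -0.20, and these counts were not stable. Without GDC-0941 replicate 2, GDC-0941 replicate 3 or control replicate 2 the number lower was 5, and without control replicate 3 it was 4. The number higher was 1 without GDC-0941 replicate 3, control replicate 1 or control replicate 2. With hybridisation controls 0 were lower and 3 higher, where 4.53% of all genes were lower and 28.8% higher. With unmarked probe sets first 5 were lower, with a median of -0.02. The subunits POLR1C (-0.38) and POLR1G (-0.36) and the selectivity factor subunit TAF1D (-0.33) fell most. The subunit POLR1D rose by 0.38, and TAF1C by 0.21. In the nuclear RNA exosome and its cofactors, which trim rRNA precursors, 9 of 15 fell (5 with unmarked probe sets first), with EXOSC4 (-0.57), EXOSC3 (-0.55) and EXOSC2 (-0.44) first, and C1D rose (0.34). Of 13 genes of snoRNP assembly 7 fell and none rose in limma, also at an unadjusted p under 0.05. NUFIP1 (-0.53), the AAA+ ATPase RUVBL1 (-0.47) and TCOF1 (treacle, -0.47) fell most. Of the snoRNA host transcripts 5 of 16 were measured: SNHG17 fell (-0.58), and EPB41L4A-AS1 (0.70) and ZFAS1 (0.24) rose.

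Ribosomal proteins, the parts that these factors assemble, were mostly not called. Of 80 listed cytosolic ribosomal protein genes 54 were measured. Of these 2 (3.7%) fell, RPL36AL (-0.33) and RPL36 (-0.18), and none rose in limma, with 1 higher at an unadjusted p under 0.05. Among all genes 15.6% fell and 12.1% rose. In 16 of the 54 all GDC-0941 arrays lay above all controls, and in 5 below. These orders held for 17.5% and 24% of all genes. The median difference of the 54 was 0.02. These probe sets were among the brightest on the arrays, with 48 of the 54 at or above the 99th percentile of all genes and a median control signal of 14.07. Whether signals so high could still show a fall was not tested, so the low count is not evidence of unchanged transcripts. The difference between the families was not tested.

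**Figure D4:**
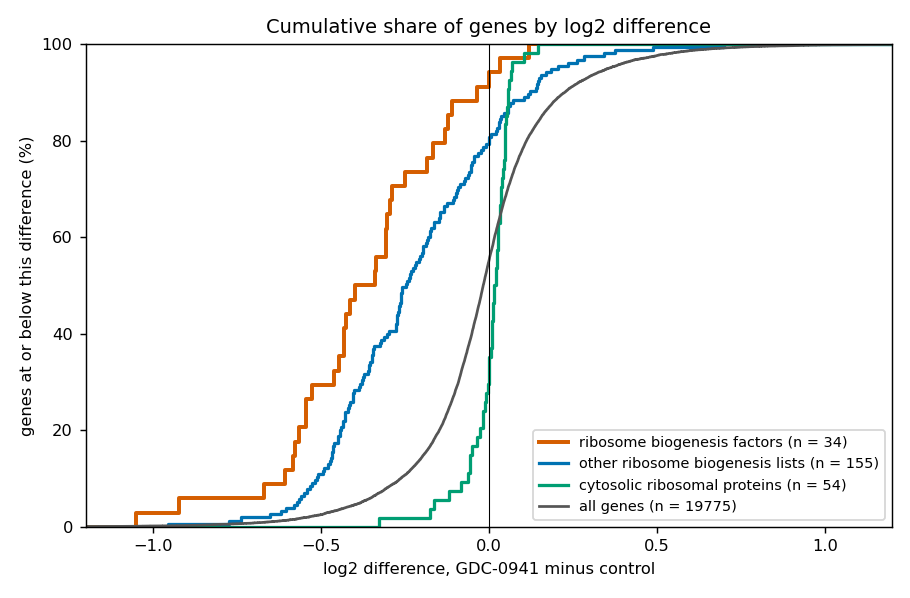
Cumulative share of genes (y axis, in percent) at or below each log2 difference, GDC-0941 minus control (x axis), for the 34 members, the 155 genes of the other lists, the 54 ribosomal protein genes and all 19775 genes. The curve of the members lies to the left, with its median at -0.37, and that of the ribosomal proteins, mostly very bright probe sets, is steep around 0.02.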

How the data were processed

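RNA of 6 samples was hybridised to 1 oligonucleotide array each, with biotinylated cRNA per the labels' protocols. The authors deposited log2 values of 54675 probe sets; RMA is the tool named in the submitters' processing notes, without version or chip definition. That they are log2 was read from the values. RMA values carry no detection call and show no change shared by most transcripts, and with 3 arrays per group their number limits the precision. After leaving out 62 control probe sets, 41091 named 1 gene, 1801 several and 11721 none. Entrez identifiers gave current symbols for 41037 of those naming 1 gene (RefSeq, GRCh38.p14).

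The test was limma 3.58.1 under R 4.3.3 (GDC-0941 minus control, lmFit then eBayes, no covariates, two-sided), with Benjamini-Hochberg adjustment over all 19775 genes and a threshold of 0.05. The fit was tested on simulated data. Members, lists, motifs and the naming rule were chosen with earlier results of these data known. The rule gives each array's value for members called with a log2 difference of at least 0.5 in size and for members not called. In other lists it names the 3 called genes with the largest change in each direction. The ribosomal protein family was narrowed to symbols of ribosomal proteins proper, without a binding protein and read-through genes. The paralogs RPL39L, RPL22L1, RPL26L1, RPL7L1, RPL3L, RPL10L, RPS27L, RPS4Y1 and RPS4Y2 were also left out, while RPL36AL was kept. Figures were drawn with matplotlib 3.10.9.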

Additional observations from a re-analysis of the deposited data

How the results depend on the processing

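The count of members lower was 23 to 29 under every alternative except centring on hybridisation controls, where it was 16 with 1 higher and a median of -0.20. It was 24 to 27 when each array was left out in turn, with medians of -0.40 to -0.32. The median was -0.31 with unmarked probe sets taken first and -0.29 with the mean of all probe sets. NPM1 was the 1 member higher with quantile normalization again, with a variance trend and robust estimation and with array weights, whose estimation stopped before converging. Of the 26 members called lower, 15 were called in all 17 alternatives, and 21 in all those other than hybridisation controls. PES1 lost its call in 7 and HEATR1 in 10, while NHP2 gained one in 6, NOP10 in 3 and UBTF and WDR12 in 2 each. RRP12 and RRP8 lost the call with unmarked probe sets first, where NCL was turned in direction, at a log2 difference of 0.0554 that did not pass.

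The other lists had 43 lower and 20 higher with hybridisation controls (16 and 6 of other small subunit factors, 18 and 5 of other large subunit factors, 4 and 2 of the exosome), and 14 higher with the probe set of the largest interquartile range. Ribosomal protein genes were lower in 1 with the replicate block or an adjusted p under 0.01, in 0 with hybridisation controls, in 6 with unmarked probe sets first, in 7 with the largest interquartile range, and in 1 to 2 without each array. They were higher in 1 with quantile normalization again, genes above the median level, unmarked probe sets, the mean or the largest interquartile range, in 2 with the variance trend or array weights, and in 4 with hybridisation controls. Over all genes 895 were lower and 5688 higher with hybridisation controls, and 5176 and 4235 with array weights. The cause of these shifts was not tested, except that hybridisation controls add 1 amount per array.

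Replicate numbers were not used as pairs: deviations of same-numbered arrays from their group means correlated at -0.35, 0.19 and -0.02. With the replicate block 26 members were lower and none higher, and the median was -0.37.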

Other observations

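The arrays also carry control probe sets for ribosomal RNA, the product of the transcription that these factors serve. For 28S rRNA the 3 probe sets averaged 9.22, 9.41 and 9.59 under GDC-0941 and 9.14, 8.98 and 9.59 in controls. For 18S rRNA they averaged 7.13, 5.95 and 5.44 under GDC-0941 and 7.19, 5.99 and 5.49 in controls. In each of the 6 the arrays of both groups overlapped, and no test was made. Whether these probe sets follow rRNA production in labelled cRNA was not tested, so their values are not evidence of changed or unchanged rRNA output. The E-box stood in 23.6% of the 148 promoters of the other ribosome biogenesis lists, and the ETS motif in 52.7% of them.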
